A study of Mus musculus with 8 samples.

Results

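The regions described here are the short, isolated peaks of tagged H3.3K36M in the mouse mesenchymal progenitor line C3H10T1/2. A peak was taken when it was at most 2000 bp long and had no other peak of the deposited H3.3K36M list within 50 kb on either side, on chromosomes 1 to 19 and X. The rule kept 2180 of 8375 peaks, or 26.0%. The members were thus chosen by peak calls in H3.3K36M, so its own signal at them is given as a description, and the other 3 libraries are the ones in which the peaks were not called.

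The study followed tagged histone H3 in 4 lines by chromatin immunoprecipitation and sequencing with an antibody to the HA tag. The lines stably expressed FLAG-HA-tagged H3.3K36M, H3.3WT, H3.1K36M or H3.1WT, where K36M replaces lysine 36 by methionine and WT is the wild-type protein. All 4 were C3H embryo-derived cells at passages 10 to 15, and each gave 1 HA library. The tagged protein comes from a transgene, the labels describe no removal of endogenous H3, and whether a line was 1 clone is not stated. Input libraries and peaks of WT lines were not analysed here, and ChIP signal offers no marker genes by which the cell type could be checked. The titles of both H3.3 HA libraries begin with H3.1 and end with H3.3, so the variant was taken from the genotype field, which the column names of the signal table match. With 1 library per line there was no test between lines. Intervals below are exact (Clopper-Pearson or order-statistic) 95% intervals that cover counting error or the spread over peaks, not the spread between cultures.

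H3.1 is the replication-coupled form of histone H3, placed on newly copied DNA by the chaperone CAF-1. H3.3 is also deposited outside replication, by HIRA at active promoters and enhancers and by ATRX with DAXX at repeats and telomeres. H3.3 is therefore known for local accumulation at regulatory elements on a genome otherwise packaged by H3.1. K36M histones inhibit the enzymes that methylate lysine 36, and H3.3 K36M is the recurrent mutation of chondroblastoma, a cartilage tumour.

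The peaks were small against the deposited signal table, which gives RPM, that is reads scaled to the size of the library, in rows of 10 kb. The shortest class, 1000 bp, held 800 of the 2180 peaks (36.7%), and 1000 bp was also the shortest length in the whole list. Longer classes held 463 peaks at 1200 bp, 328 at 1400 bp, 251 at 1600 bp, 203 at 1800 bp and 135 at 2000 bp. The median length was 1200 bp, against 2000 bp for all peaks, and the 2180 peaks covered 2.85 Mb of the 31.7 Mb under all peaks (9.00%). A peak filled a median of 12% of the row or rows it lay in, so every value below averages the peak with several kilobases around it.

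The peaks made up 48.2% of the 4522 short peaks and 64.1% of the 3403 isolated peaks. The median distance to the nearest other peak was 136 kb, against 33.8 kb over all peaks, and 82 lay more than 1 Mb from any other. Every chromosome carried them, with 58 on chromosome 19 and 194 on chromosome 2. Their density ran between 0.418 per Mb on chromosome X and 1.16 per Mb on chromosome 10. They formed 41.4% of the few peaks on chromosome X and 17.1% of those on chromosome 19. The gene table at hand describes another genome build than the mm9 coordinates of the peaks, so whether a peak lies in a promoter, exon, intron or intergenic stretch is not given.

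For each peak, the level of its row (the mean, where it spans a pair of rows) was set against the mean of the 5 rows on each side, here called the flanks. This could be done for 2102 peaks (96.4%), because 66 lay in rows wider than 10 kb and 12 had too few flank rows. The libraries held 38783917 reads for H3.3K36M, 46749609 for H3.3WT, 41705735 for H3.1K36M and 35487141 for H3.1WT. Median reads in the peak rows were 295, 343, 151 and 132 in the same order of libraries. Among the 2102, 291 shared flank rows with another member and 93 had a further H3.3K36M peak in the outermost part of their flanks.

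Tagged H3.3 stood as a narrow summit at these peaks in both H3.3 lines, and tagged H3.1 showed a shallow dip. The median peak row held 7.30 RPM in H3.3K36M, 7.03 in H3.3WT, 3.52 in H3.1K36M and 3.57 in H3.1WT. Median flank levels were 4.37, 5.03, 3.83 and 3.89 RPM in that order. The summit lay mainly in the peak row, with a weak shoulder that fell off over the flank rows at this resolution. In H3.3WT the rows 10 kb away had medians of 5.12 RPM on the left and 4.98 RPM on the right. Rows 20 kb away had 4.86 and 4.77 RPM, rows 30 kb away 4.77 and 4.73 RPM, and rows 50 kb away 4.56 and 4.60 RPM. H3.3K36M had 4.43 and 4.35 RPM at 10 kb and 3.88 and 3.94 RPM at 50 kb. In H3.1WT every median beside the peak lay between 3.85 and 3.96 RPM.

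**Figure D1:**
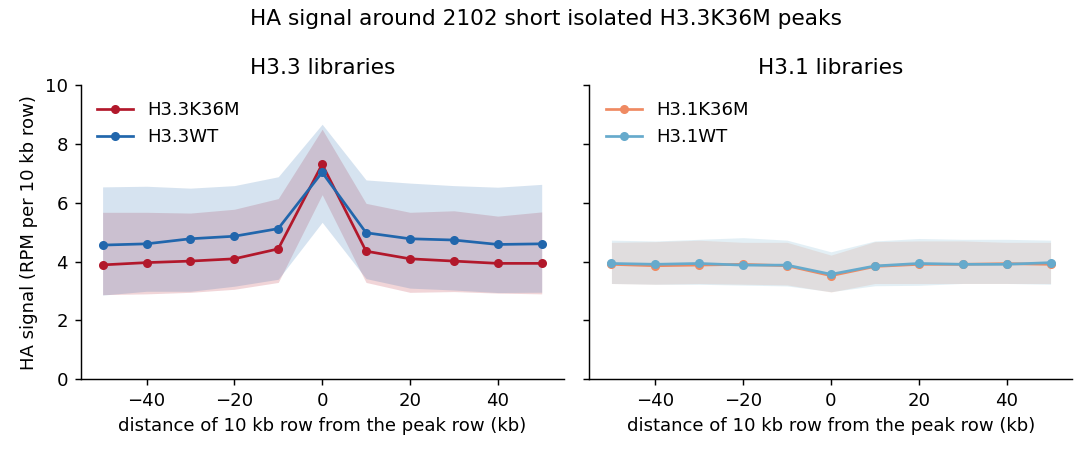
Median HA signal (points, RPM per 10 kb row) with the 25th to 75th percentile band, by distance of the row from the peak row in kb, for 2102 short isolated peaks. Left, H3.3K36M and H3.3WT, which reach 7.30 and 7.03 RPM at the peak row; right, H3.1K36M and H3.1WT, which drop to 3.52 and 3.57 RPM there.

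The flanks themselves were rich in H3.3. The median flank level was 1.45 times the median of all 10 kb rows in H3.3K36M and 1.81 times in H3.3WT, against 1.05 times in H3.1K36M and 1.07 times in H3.1WT. Flanks lay above the all-row median at 85.5% of peaks in H3.3WT and at 61.5% in H3.1WT. These isolated peaks thus sat in surroundings with more tagged H3.3 than most of the genome, although no other H3.3K36M peak lay within 50 kb.

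The local elevation carried over to H3.3WT, the H3.3 library in which the peaks were not called. A peak row was counted as elevated when it was at least 1.5-fold above its flanks. In H3.3WT, 731 of 2102 peaks (34.8%, interval 32.7 to 36.9) were elevated, where 5.08% of all 243474 usable rows met the same rule. In H3.3K36M, where the peaks were called, 1305 (62.1%) were elevated against 7.42% of all rows. H3.1K36M had 11 such peaks (0.523%, interval 0.262 to 0.934, against 1.03% of all rows). H3.1WT had 14 (0.666%, interval 0.365 to 1.11, against 1.17%). Thus the share in H3.3WT lay well above its background. Both H3.1 shares lay below theirs, but they rest on few peaks. Among peaks isolated by 100 kb, the H3.1K36M interval (0.206 to 1.05) and the H3.1WT interval (0.403 to 1.44) included those backgrounds. At a lower limit of 25% above the flanks both H3.1 shares stayed below their backgrounds. At the 1.5-fold limit nothing is read from the H3.1 shares. At a limit of 2-fold, 554 peaks passed in H3.3K36M (26.4%, against 1.75% of all rows) and 196 in H3.3WT (9.32%, against 0.924%). The limit was passed by 2 peaks in H3.1K36M (0.0951%, against 0.150%) and 3 in H3.1WT (0.143%, against 0.158%), shares near the background.

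On the log2 scale, with 0.1 RPM added to each level, the median of peak row over flanks was 0.72 in H3.3K36M (interval 0.69 to 0.74). It was 0.41 in H3.3WT (0.39 to 0.44), and all rows had a median of −0.02 there. In H3.1K36M and H3.1WT it was −0.12 in each case (interval −0.14 to −0.11 in each), where all rows had 0.02. The whole distribution was shifted rather than a tail: 87.3% of the peaks were above their flanks in H3.3WT, against 47.1% of all rows. In H3.1WT 31.8% of the peaks were, against 53.0% of all rows. Medians by chromosome ran between 0.34 and 0.57 in H3.3WT and between −0.21 and −0.07 in H3.1WT, so the 20 chromosomes of one variant did not overlap with those of the other.

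**Figure D2:**
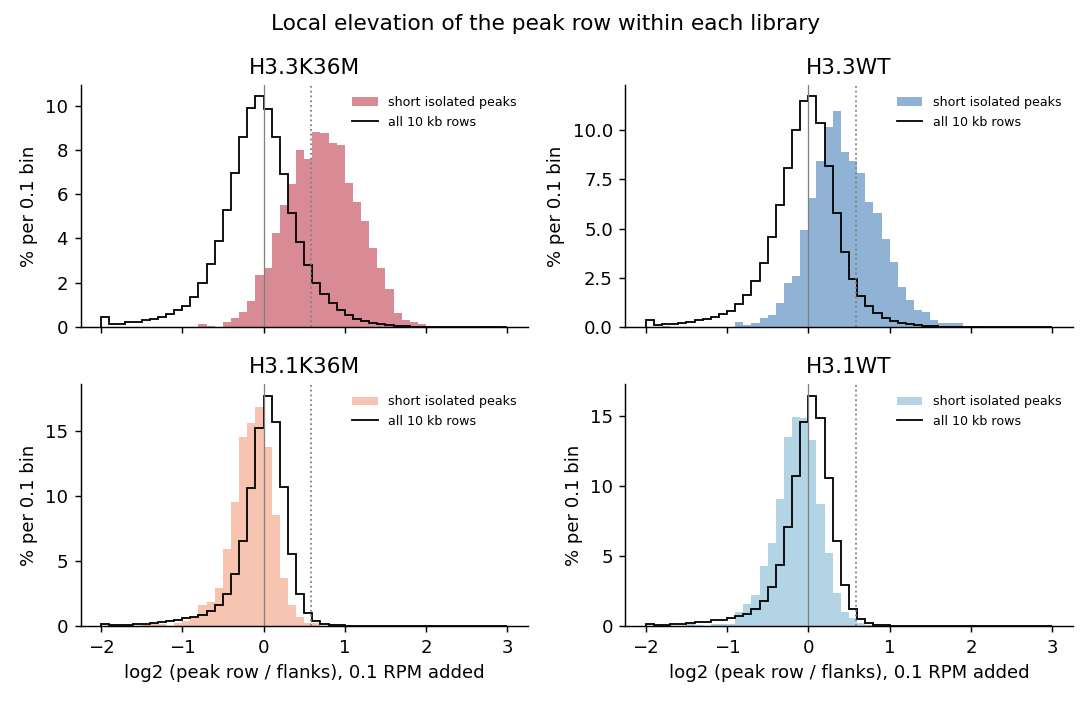
Distribution of log2 (peak row over mean of flank rows, 0.1 RPM added) in each HA library, as percent per bin of 0.1 with values past the axis in the end bins, for 2102 short isolated peaks (filled) and for all 10 kb rows (line). The grey line marks equality with the flanks and the dotted line 1.5-fold; the filled distribution is shifted right in both H3.3 libraries (medians 0.72 and 0.41) and slightly left in both H3.1 libraries (medians −0.12 in each).

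A count that needs no fold limit gave the same picture. In 1614 peaks within 1 row and with all 10 flank rows, the peak row was the highest of the 11 rows at 950 (58.9%) in H3.3K36M and at 650 (40.3%) in H3.3WT. Over all rows, 8.18% and 7.81% were the highest of their 11 in those libraries. In H3.1K36M it was the highest at 36 peaks (2.23%, against 8.20% of all rows), and in H3.1WT at 46 (2.85%, against 8.09%). The peak row was the lowest of the 11 at 2 peaks in H3.3K36M and 10 in H3.3WT, where 8.05% and 7.79% of all rows were. In the H3.1 libraries it was the lowest at 256 peaks (15.9%, against 8.32%) in H3.1K36M and at 241 (14.9%, against 8.28%) in H3.1WT.

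The H3.1 dip was broad but shallow. Rows of 70.8% of the peaks lay below their flanks in H3.1K36M and 68.2% in H3.1WT, against 46.0% and 46.9% of all rows. Few fell far: 119 peaks (5.66%) in H3.1K36M and 126 (5.99%) in H3.1WT were at least 1.5-fold below their flanks, where 5.86% and 6.00% of all rows were. Those shares are near the background. Both H3.1 libraries were below the flanks at 1207 peaks (57.4%), against 33.6% of all rows. At least 1.5-fold below in both were 70 peaks (3.33%), against 4.59% of all rows. Of the peaks that far below in H3.1WT, 55.6% were also in H3.1K36M, against 76.5% over all rows. In the H3.3 libraries only 4 peaks (H3.3K36M, against 11.3% of all rows) and 12 peaks (H3.3WT, against 9.62%) were that far below.

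A row above its flanks in H3.3WT and below them in H3.1WT was the commonest arrangement, at 1274 peaks (60.6%), against 19.9% of all rows. Each part was common alone, at 87.3% of peaks above in H3.3WT and 68.2% below in H3.1WT. The joint count therefore cannot show whether summit and dip are linked at single sites. The sizes of the H3.3 summit and the H3.1 dip were then compared peak by peak. Over the 2102 peaks, Pearson's r was 0.723 between H3.3K36M and H3.3WT and 0.739 between H3.1K36M and H3.1WT, while the 4 pairs of an H3.3 with an H3.1 library ran between −0.0525 and 0.0454. Spearman's rho for those 4 pairs was negative throughout, between −0.139 (H3.3WT with H3.1WT) and −0.00709 (H3.3K36M with H3.1WT). These are correlations across peaks, which share libraries, depth and local base composition, and are not replicates.

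Set against H3.1 in the same row, H3.3 was enriched at the peaks beyond their surroundings. The median log2 of H3.3WT over H3.1WT was 0.91 at the peak row and 0.32 in the flanks, where all rows had −0.43. The difference between peak row and flanks, which hardly depends on how the libraries are scaled, had a median of 0.58 (interval 0.55 to 0.60) and was above 0 at 1834 of 2102 peaks. Over all rows that difference had a median of −0.04. At 2-fold, H3.3WT exceeded H3.1WT at 931 peak rows (44.3%), against 10.3% of all rows, and was 2-fold below it at 29, against 16.8%. In the K36M lines the median log2 of H3.3K36M over H3.1K36M was 0.99 at the peak row and 0.11 in the flanks. There 1027 peak rows (48.9%) were 2-fold higher, against 8.17% of all rows, and 0 were 2-fold lower, against 3.27%. H3.3K36M peak calls chose the members, so the values of the K36M lines are a description.

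The H3.3WT signal also followed where in the table the short peak lay. For 214 peaks that straddled a row boundary, the row with more of the peak was the higher one at 154 (72.0%) in H3.3K36M and at 130 (60.7%, interval 53.9 to 67.3) in H3.3WT. The same row was the higher one at 102 (47.7%) in H3.1K36M and at 96 (44.9%, interval 38.1 to 51.8) in H3.1WT. For 596 peaks centred within 2 kb of a row edge, the nearer neighbouring row was the higher neighbour at 347 (58.2%) in H3.3K36M. That was so at 313 (52.5%, interval 48.4 to 56.6) in H3.3WT, at 285 (47.8%) in H3.1K36M and at 260 (43.6%) in H3.1WT. The H3.3WT interval of this last count includes 50%.

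The clearest single summit in H3.3WT was chr3:123207601-123209600, a peak of 2000 bp with no other within 221 kb. Its row held 8.16 RPM in H3.3K36M, 10.5 in H3.3WT, 1.42 in H3.1K36M and 1.70 in H3.1WT. The flanks held 2.63, 2.50, 2.35 and 2.39 RPM in that order, so the flank means were similar in all 4 libraries, while single flank rows ran between 1.31 and 3.83 RPM in H3.3WT. The row was 4.20-fold above its flanks in H3.3WT (interval 3.78 to 4.68) and 0.712 of its flanks in H3.1WT. Regions named for an extreme value were ranked on the same reads, which favours extreme folds, and their intervals take no account of that ranking.

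Next came chr12:39655201-39656200, a peak of 1000 bp more than 1 Mb from any other. Its row held 7.15 RPM in H3.3K36M, 9.20 in H3.3WT, 2.84 in H3.1K36M and 2.72 in H3.1WT, against flanks of 2.41, 2.46, 3.42 and 3.34 RPM. Here too both H3.3 libraries stood above low flanks, and both H3.1 libraries lay under theirs. At chr15:56801401-56802400 the row held 9.01 RPM in H3.3K36M, 14.9 in H3.3WT, 2.80 in H3.1K36M and 3.65 in H3.1WT. Its flanks held 2.37, 4.13, 3.40 and 3.48 RPM in that order. At chrX:7710001-7711800 the row held 12.1, 14.2, 2.58 and 2.32 RPM in that order, the deepest H3.1WT dip of the 10 highest, at 0.573 of its flanks.

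The 10 peaks highest over their flanks in H3.3WT had folds of 3.18 to 4.20 there, and 2.38 to 3.87 in H3.3K36M. In H3.1WT 6 of the 10 were below their flanks, with folds of 0.573 to 1.87 over all 10. The one with H3.1WT above 1.5-fold was chr13:3035801-3036800, near the end of its chromosome. It held 5.75 RPM in H3.3K36M, 4.62 in H3.3WT, 5.25 in H3.1K36M and 4.73 in H3.1WT, so its row was high in every library, against flanks of 1.93, 1.29, 2.90 and 2.52 RPM.

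**Figure D3:**
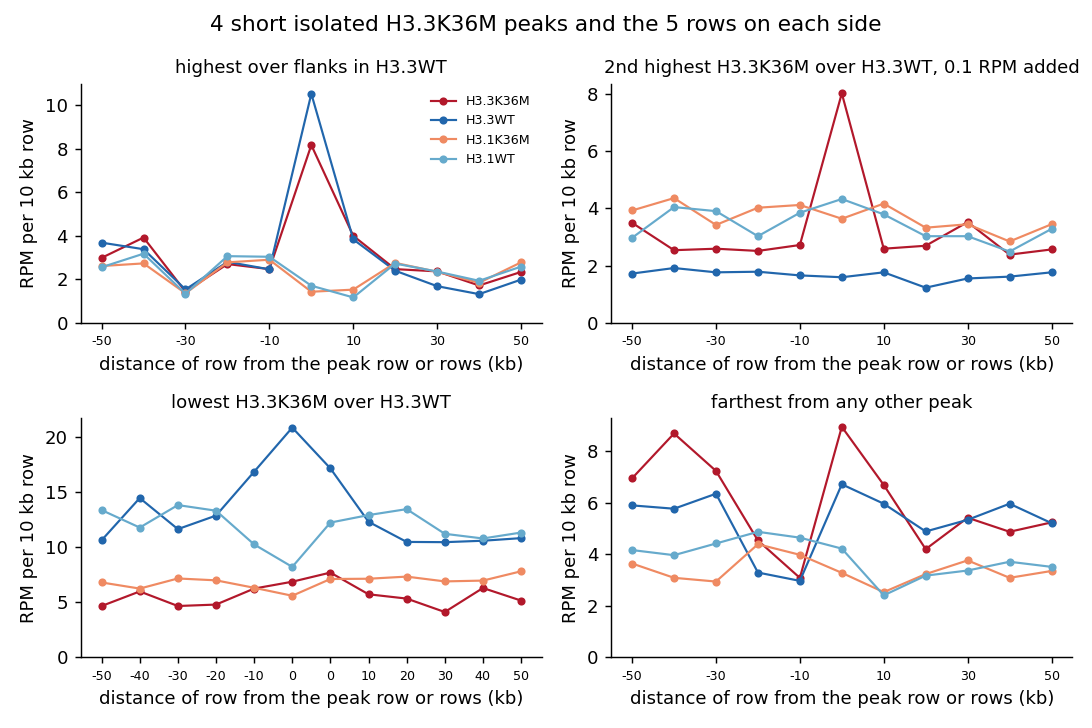
HA signal (RPM per 10 kb row) in the peak row or rows and the 5 rows on each side, by distance in kb, at 4 short isolated peaks in the 4 libraries. Upper left, chr3:123207601-123209600, where H3.3K36M reaches 8.16 RPM and H3.3WT 10.5; upper right, chr17:69155001-69156000, where H3.3K36M reaches 8.03 RPM and H3.3WT 1.59; lower left, chr10:83529201-83530600, which spans a pair of rows and where H3.3WT and H3.1WT lie above the K36M libraries throughout; lower right, chrX:39492401-39493800, the peak farthest from any other.

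At the other end, the peaks lowest over their flanks in H3.3WT were of several kinds. The lowest, chr17:39942201-39943800, held 6.53 RPM in H3.3K36M, 2.19 in H3.3WT, 3.64 in H3.1K36M and 4.56 in H3.1WT. A single flank row, chr17:39980001-39990000, held 53.5, 57.9, 39.9 and 43.1 RPM in that order and raised the flank means of all 4 libraries to between 7.39 and 8.26 RPM. Against the median of the flank rows, the log2 value was 1.16 in H3.3K36M, −0.04 in H3.3WT, −0.15 in H3.1K36M and −0.06 in H3.1WT. The low rank of this peak thus rests on that one row.

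The next, chr4:50390001-50391200, had little signal in 3 libraries: 1.07 RPM in H3.3WT, 1.28 in H3.1K36M and 1.19 in H3.1WT, with 4.58 in H3.3K36M. Its flanks held 3.23 RPM in H3.3K36M, 2.05 in H3.3WT, 3.53 in H3.1K36M and 4.08 in H3.1WT. At chr12:50291801-50292800 the row held 4.30 RPM in H3.3K36M, 0.839 in H3.3WT, 1.69 in H3.1K36M and 1.90 in H3.1WT. At both, H3.3K36M stood above its flanks in a row where the other 3 libraries were low. At chr9:57837001-57838200 even H3.3K36M lay below its flanks (6.60 against 8.69 RPM), as did H3.3WT (3.85 against 6.99 RPM). In all, 106 peak rows (5.04%) were no higher than their flanks in H3.3K36M itself, and 267 (12.7%) in H3.3WT. Over all rows, 55.8% lay below their flanks in H3.3K36M and 52.8% in H3.3WT. In H3.3WT such peaks were thus far rarer than the background. In H3.3K36M, whose peak calls chose the members, the low share is a description.

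Most peaks elevated in H3.3WT were elevated in H3.3K36M too, which the choice of members by H3.3K36M peak calls favours. Of the 731 peaks elevated in H3.3WT, 686 (93.8%) were also elevated in H3.3K36M, and these were 52.6% of the 1305 elevated in H3.3K36M. Another 33 of the 2102 peaks were elevated in H3.3K36M without being above their flanks in H3.3WT, an arrangement found at 0.324% of all rows. The choice by H3.3K36M peak calls favours this arrangement too, so nothing is read from the 33. All 4 libraries were elevated at 7 peaks (0.333%, against 0.259% of all rows) and both H3.1 libraries at 8 (0.381%, against 0.602%). The short isolated peaks were a small part of the narrow H3.3 elevations that the table shows: of 12368 rows elevated in H3.3WT, 2804 (22.7%) held any H3.3K36M peak and 777 (6.28%) held a member, where 0.960% of all rows held one. At 2-fold, 205 of 2249 such rows (9.12%) held one.

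Elevated H3.3WT rows without any H3.3K36M peak nearby offer a comparison. There were 7734 of them, 4.18% of the 184977 rows with no peak in the row or its flanks, and H3.3WT chose them. Of the 7734, 60.6% were elevated in H3.3K36M too, against 6.14% of the 184977. Their median log2 over flanks was 0.67 in H3.3K36M, 0.75 in H3.3WT, 0.02 in H3.1K36M and −0.02 in H3.1WT. Among the 731 members elevated in H3.3WT the H3.1 medians were −0.15 in H3.1K36M and −0.18 in H3.1WT. The H3.1 medians were thus lower at the peaks than at unlisted rows elevated in H3.3WT, a difference that was not tested.

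Longer isolated peaks showed the same pattern more strongly. By length from 1000 to 2000 bp, the H3.3WT median log2 over flanks was 0.37, 0.41, 0.49, 0.48, 0.46 and 0.48. Isolated peaks over 2000 and under 5000 bp (812 usable of 853) had 0.53 and those of 5000 bp up (335 of 370) had 0.60. H3.1WT had −0.09 at 1000 bp, −0.19 in the middle class and −0.27 in the longest. A longer peak fills more of its row, and the part of row filling in these values was not tested. Just inside the length limit, peaks of 2000 bp had a median of 0.48 in H3.3WT, and isolated peaks of 2200 bp just outside it had 0.52.

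The values by isolation spread further in H3.3K36M than in H3.3WT. With the nearest other peak at 50 to 100, 100 to 200, 200 to 500 and over 500 kb (737, 649, 458 and 258 peaks), the H3.3K36M median log2 over flanks was 0.57, 0.70, 0.85 and 1.02. The H3.3WT median was 0.38, 0.39, 0.49 and 0.49 in the same classes. Peaks and distances both come from H3.3K36M calls, so the rise in H3.3K36M is a description. Median H3.3K36M flank levels fell from 5.27 RPM in the nearest class to 3.02 RPM in the farthest. The H3.3K36M peak rows went from 7.93 to 6.45 RPM. H3.3WT flank levels fell with distance, at 5.97, 4.94, 4.44 and 2.81 RPM, so the most isolated peaks lay in the poorest H3.3 surroundings. Short peaks with another peak within 50 kb (2238 usable of 2342), whose flanks often hold that peak, had a median of 0.22 in H3.3WT. Just inside the distance limit, 94 members up to 55 kb from the next peak had 0.25 in H3.3WT, and 93 short peaks at 45 to 50 kb just outside it had 0.20.

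**Figure D4:**
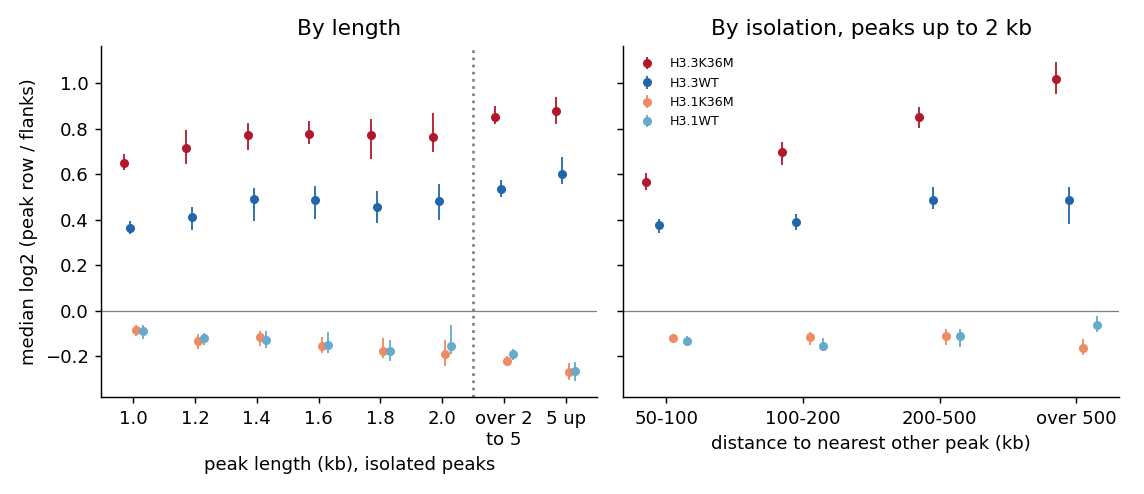
Median log2 (peak row over flanks) with 95% order-statistic intervals over peaks, in the 4 HA libraries. Left, isolated peaks by length, with the dotted line at the limit of 2 kb; right, short isolated peaks by distance to the nearest other H3.3K36M peak. By distance, H3.3K36M rises to 1.02 in the most isolated class and H3.3WT stays between 0.38 and 0.49. The H3.1 libraries stay below 0. Peaks and distances come from H3.3K36M calls, so the rise in H3.3K36M is a description.

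H3.3K36M and H3.3WT are compared next as a description, since H3.3K36M chose the peaks. The peak rows were close: the median log2 of H3.3K36M over H3.3WT was 0.08, and all rows had 0.10, a shift that leaves −0.02 relative to the genome. The flanks were lower in H3.3K36M, at −0.11, or −0.21 relative to all rows. The peak row less its flanks therefore had a median of 0.24 (interval 0.23 to 0.26), above 0 at 1725 of 2102 peaks, and chromosome medians of 0.18 to 0.30. In RPM above the flanks, the 2102 peaks summed to 5844 in H3.3K36M and 3931 in H3.3WT, a ratio of 1.49. Choosing peaks in one library favours that library, so nothing is read from these differences. In H3.1, where neither library chose the peaks, the same difference between H3.1K36M and H3.1WT had a median of −0.01.

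At the 2-fold rule, 198 peak rows (9.42%) stood higher in H3.3K36M than H3.3WT, where 2.93% of all rows did, and 9 (0.428%) stood lower, where 1.81% of all rows did. The H3.1 lines differed 2-fold at 0 peak rows in either direction, against 0.0123% of all rows higher and 0.0645% lower in H3.1K36M. K36M and WT lay at least 1.5-fold apart in opposite directions for H3.3 and H3.1 at 8 peak rows (0.381%, against 0.159% of all rows). The 198 were found in H3.3-poor surroundings. Their median row held 6.50 RPM in H3.3K36M and 2.28 in H3.3WT, with flanks of 2.97 and 1.89 RPM, and their median distance to the next peak was 424 kb. By distance class the share that was 2-fold higher was 2.04%, 4.47%, 13.5% and 35.7%. Of the 198, 27 (13.6%) were elevated in H3.3WT, against 34.8% of all members. A low H3.3WT row is part of how the 198 were chosen. Their H3.3WT levels, their H3.3WT elevations and the rise with distance are therefore a description, from which nothing is read.

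The highest ratios, ranked with 0.1 RPM added, were near 5-fold, and plain ratios order them differently. At chr17:69155001-69156000 the row held 8.03 RPM in H3.3K36M, 1.59 in H3.3WT, 3.64 in H3.1K36M and 4.33 in H3.1WT. H3.3K36M was 5.05-fold higher there (interval 3.90 to 6.59), and its flanks 1.65-fold higher. H3.3WT was flat across this window, with 1.67 RPM in its flanks. At chr11:38483401-38484600 the row held 9.01, 1.83, 2.29 and 2.94 RPM in that order, a ratio of 4.93 (interval 3.88 to 6.33). Similar values were seen at chr14:49991601-49993400, with 9.61 RPM in H3.3K36M and 1.96 in H3.3WT, and at chr9:104803401-104804600, with 5.02 and 0.989 RPM. The top-ranked, chr18:42925801-42927600, held 9.66 RPM in H3.3K36M and 1.91 in H3.3WT, and its flanks were already 2.50-fold higher in H3.3K36M. At the 5 highest, H3.3WT was 0.863 to 1.28 times its flanks. The ranking favours low H3.3WT rows, so nothing is read from the lack of an H3.3WT summit there.

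The 9 peaks that were 2-fold lower in H3.3K36M lay in stretches where H3.3WT was high throughout. Their medians were 7.28 RPM in H3.3K36M and 15.5 in H3.3WT at the peak row, and 4.08 and 10.6 RPM in the flanks. A high H3.3WT row is part of how the 9 were chosen, so their H3.3WT levels are a description, from which nothing is read. Of the 9, 5 were on chromosome 15, which held 94 of the 2102 usable members. The H3.3WT peak rows of that chromosome had a median of 9.31 RPM, the highest of any chromosome, against 7.42 RPM in H3.3K36M. All rows of chromosome 15 lay the same way, with a median log2 of H3.3K36M over H3.3WT of −0.20, the lowest of any chromosome. The 5 are therefore not read as particular to these peaks. At chr15:54317801-54318800 the row held 8.11 RPM in H3.3K36M, 20.2 in H3.3WT, 3.25 in H3.1K36M and 3.68 in H3.1WT. Its flanks held 3.99, 11.2, 3.79 and 5.45 RPM, so the row was about as far above its surroundings in H3.3K36M (2.03-fold) as in H3.3WT (1.81-fold).

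At a pair of neighbouring peaks on chromosome 10 the WT lines were higher for both variants. At chr10:83529201-83530600 the pair of rows averaged 7.28 RPM in H3.3K36M, 19.0 in H3.3WT, 6.35 in H3.1K36M and 10.2 in H3.1WT, with flanks of 5.30, 12.1, 6.96 and 12.2 RPM. The peak at chr10:83457601-83458600, which lies nearby and shares the neighbourhood, held 7.28, 15.5, 7.18 and 10.8 RPM in that order. The H3.1 lines differ here in the same direction as the H3.3 lines, over the flanks as well as the peaks, and whether the lines differ in DNA copy number there was not tested.

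**Figure D5:**
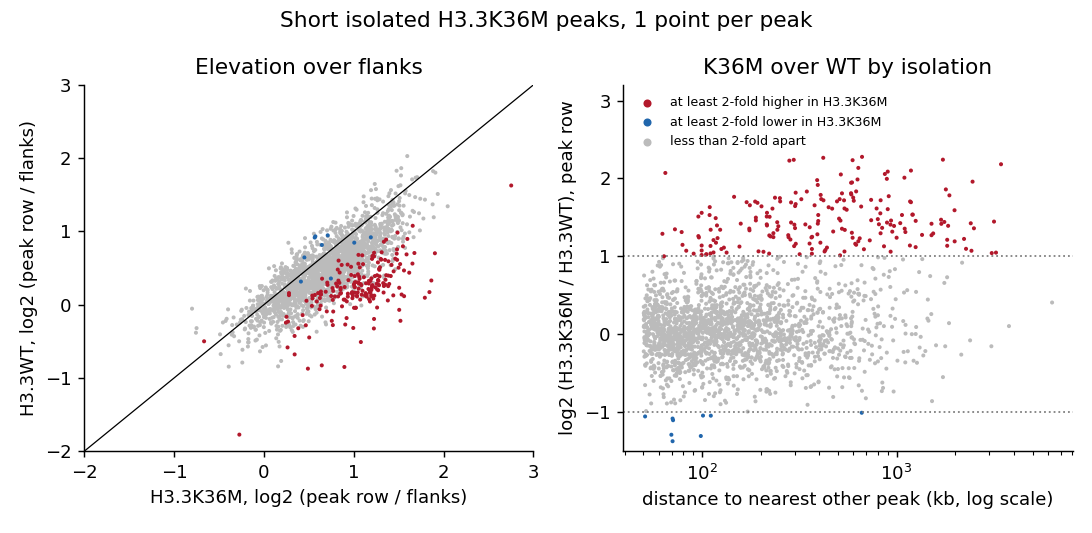
Left, log2 (peak row over flanks) in H3.3K36M (horizontal) and H3.3WT (vertical) for 2102 short isolated peaks, with the line of equality. Right, log2 of H3.3K36M over H3.3WT at the peak row by distance to the nearest other H3.3K36M peak (kb, log axis), with dotted lines at 2-fold; the 198 peaks 2-fold higher are mostly far from other peaks and the 9 lower ones mostly near.

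Median peak rows by chromosome ran between 7.01 and 7.64 RPM in H3.3K36M, whose peak calls chose the members, and between 5.36 (chromosome X) and 9.31 RPM (chromosome 15) in H3.3WT. Over the flanks the order of spread was the other way, with log2 medians by chromosome of 0.54 to 0.87 in H3.3K36M and 0.34 to 0.57 in H3.3WT. All rows of a chromosome moved likewise, with medians of log2 H3.3K36M over H3.3WT between −0.20 and 0.36. The share of members elevated in H3.3WT ran between 22.8% on chromosome 16 and 48.0% on chromosome 13. The share 2-fold higher in H3.3K36M ran between 3.77% on chromosome 7 and 15.9% on chromosome 18.

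The most remote peak, chrX:39492401-39493800, lay 6.30 Mb from any other. Its row held 8.94 RPM in H3.3K36M, 6.71 in H3.3WT, 3.28 in H3.1K36M and 4.22 in H3.1WT, against flanks of 5.69, 5.16, 3.40 and 3.82 RPM. It was a modest elevation, 1.57-fold in H3.3K36M and 1.30-fold in H3.3WT (interval 1.15 to 1.46). At chr3:75302801-75304000, 3783 kb from the next peak, the row held 7.23, 6.71, 2.29 and 2.75 RPM, with folds of 1.92 in H3.3K36M and 1.59 in H3.3WT.

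The next most remote, chrX:120151601-120153000, was high in every library. Its row held 17.0 RPM in H3.3K36M, 3.68 in H3.3WT, 4.60 in H3.1K36M and 5.15 in H3.1WT, against flanks of 2.44, 1.12, 1.98 and 2.04 RPM. The folds over flanks were 6.98 (interval 6.31 to 7.72), 3.28, 2.32 and 2.53. It had the highest H3.3K36M fold of all 2102 peaks and the highest H3.1WT fold.

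Of the 14 members elevated in H3.1WT, 10 were also elevated in H3.3K36M, 9 in H3.3WT and 8 in H3.1K36M, and 5 were at or below their flanks in H3.3WT. Among all 2102 members, 62.1% were elevated in H3.3K36M, 34.8% in H3.3WT and 0.523% in H3.1K36M. Over all rows, 1.17% were elevated in H3.1WT and 0.602% in both H3.1 libraries. The 14 are few, and no difference from these shares was tested. The 5 highest over their flanks in H3.1WT, chosen after the values were seen, had H3.1WT folds of 1.88 to 2.53 and H3.3WT folds of 1.94 to 3.28. At chr6:58552001-58553000 the row held 8.96 RPM in H3.3K36M, 9.40 in H3.3WT, 8.82 in H3.1K36M and 7.61 in H3.1WT, with flanks between 3.47 and 4.85 RPM. At chr4:3428801-3430000 it held 8.39, 6.90, 7.04 and 7.95 RPM, with flanks between 3.09 and 3.88 RPM. A row that is high in every HA library does not separate H3.3 from H3.1, and the input that could show its background was not used here.

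The 5 lowest in H3.1WT, chosen in the same way, were mostly low in H3.3 also. The lowest, chr11:62780001-62781000, held 2.80 RPM in H3.3K36M, 4.79 in H3.3WT, 0.868 in H3.1K36M and 0.708 in H3.1WT, against flanks of 4.79, 6.28, 3.96 and 4.22 RPM. H3.1WT was at 0.168 of its flanks (interval 0.108 to 0.249), and H3.3K36M, in which the peak was called, at 0.583. In H3.3WT 4 of the 5 were below their flanks. The wider group of 126 members at least 1.5-fold below their flanks in H3.1WT did not share this. Its H3.3WT median log2 over flanks was 0.45, with 38.9% elevated, against 0.41 and 34.8% over all members.

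The H3.1K36M peak list held 73 peaks, of which 15 overlapped some H3.3K36M peak and 0 overlapped a short isolated one. With a list this short, and the short isolated peaks covering 9.00% of the bases under H3.3K36M peaks, nothing is read from the 0. The nearest, chr15:101779401-101783400, lay 6200 bp from the member chr15:101772201-101773200. That member's row held 6.86 RPM in H3.3K36M, 7.68 in H3.3WT, 7.28 in H3.1K36M and 6.03 in H3.1WT, and was above its flanks in none of the 4 libraries.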

How the data were processed

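Build mm9 and Bowtie 1.0.0 are named, per the submitters' processing notes. The authors deposited RPM (reads scaled to the library total) per genomic row for the 4 HA libraries, and peak positions for H3.3K36M and H3.1K36M with no score. The peak caller, threshold, control and read counting are not given in the sources used here. Groups follow the genotype field. Titles of the H3.3 ChIP samples start with H3.1, against their genotype, and the protocol names a Cbx2 antibody where the sample descriptions name HA.

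In each deposited RPM column, 100% of values were whole multiples of the value of 1 read (0.0215 to 0.0283 RPM), within 0.01 read. Reads were recovered from these steps for depth and counting intervals. With 1 library per line no count test could be made, so no genes or rows were called by one. The columns sum to 0.429% to 0.512% above their nominal total. Reads carry no molecular identifiers and can be PCR copies, so intervals cover counting error only.

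Peak rows averaging 0.5 RPM or more across libraries, with at least 3 flank rows of 10 kb per side were used. Log2 values carry a pseudocount of 0.1 RPM, which understates changes of low rows, and named folds are ratios of RPM without it. Backgrounds apply the same rule to 243474 rows. Peak coordinates are printed 1-based in mm9. Named regions were the 10 highest and 5 lowest over flanks in H3.3WT, the 5 highest and 5 lowest in H3.3K36M over H3.3WT, the 3 farthest from another peak, and those beside the limits of length and distance. The members and lists were chosen with earlier results of these data known. The steps were tested on simulated data. Tools were matplotlib 3.10.9, scipy 1.17.1, pandas 2.3.3, numpy 2.4.6 and Python 3.11.15.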

Additional observations from a re-analysis of the deposited data

Results flagged for a closer look

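Members in rows wider than 10 kb were left out of the comparisons, and their signal was looked at separately. Of these, 58 could be divided per 10 kb, 57 of them in rows of 20 kb. Their median log2 over flanks was 0.55 in H3.3K36M, 0.40 in H3.3WT, −0.08 in H3.1K36M and −0.06 in H3.1WT. At least 1.5-fold above the flanks were 27 of the 58 in H3.3K36M, 12 in H3.3WT (20.7%) and 0 in each H3.1 library. With wider rows included, 7.38% (H3.3K36M), 5.04% (H3.3WT), 1.11% (H3.1K36M) and 1.26% (H3.1WT) of all rows were, so 58 peaks are too few to read the 0.

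At 8 peaks the K36M library was at least 1.5-fold apart from the WT library in opposite directions for the 2 variants, on the log2 scale with 0.1 RPM added. They were 8 of 2102, where 0.159% of all rows met the same rule. The difference was not tested, and each rests on 1 library per line. At chr1:115935601-115936600 the row held 5.65 RPM in H3.3K36M and 1.48 in H3.3WT, a ratio of 3.81, and 1.90 in H3.1K36M and 3.08 in H3.1WT, a ratio of 0.617 (interval 0.456 to 0.832). At chrX:110011001-110012800 H3.3K36M was 3.19-fold above H3.3WT, with 2.46 RPM in H3.1K36M and 4.05 in H3.1WT. The other way round, chr7:81520801-81521800 held 5.96 RPM in H3.3K36M and 9.93 in H3.3WT, and 2.43 in H3.1K36M and 1.56 in H3.1WT. The H3.1 counts behind these ratios are small, at 79 and 109 reads for the first peak and 101 and 55 for the last.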

How the results depend on the processing

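Of 109 values under 16 alternative settings, 69 stayed within the interval of the main value or within 1.5 times a count, 40 moved and 0 changed sign. With 1 RPM added, the medians over flanks were 0.36 (H3.3WT), −0.10 (H3.1K36M) and −0.10 (H3.1WT), the H3.3WT over H3.1WT difference 0.48, and 4 peaks were 2-fold lower in H3.3K36M. With the median of flank rows, 39.2% of peaks were elevated in H3.3WT, its median was 0.46, the difference 0.63 and the flank level 4.84 RPM. Without the nearest flank rows these were 38.6% and a difference of 0.61. Of 779 usable among the 800 peaks of 1000 bp, 29.9% were elevated in H3.3WT, with medians of 0.37 (H3.3WT), −0.086 (H3.1K36M) and −0.088 (H3.1WT) and a difference of 0.52. Of 1365 usable among the 1414 peaks isolated by 100 kb, 38.4% were elevated, with a median of 0.44 and a difference of 0.62. With a limit 25% above the flanks the elevated shares were 60.0% (H3.3WT), 2.57% (H3.1K36M) and 4.04% (H3.1WT), against 15.4%, 8.42% and 9.57% of all rows. At 2-fold they were 9.32%, 0.0951% and 0.143%, against 0.924%, 0.150% and 0.158%. Within 10 kb, 1 H3.1K36M peak met a member. Scaling by the median of row ratios gave 171 peaks 2-fold higher and 13 lower in H3.3K36M, and chromosome medians subtracted (chosen after seeing the data) gave 168 and 11.

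No paired analysis was possible because each line has 1 HA library and the result comes from no test. Rows of 10 kb average a peak of 1 to 2 kb with its surroundings, and low rows hold few reads. No input or replicate limits what a row's height can be set against.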
